A study of Mus musculus with 2 samples.

Results

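Homeobox and paired box genes encode DNA-binding proteins that lay out the embryonic nervous system and other organs, and 52 of them were examined among 21827 protein-coding genes for DNA accessible to DNase I in the adult mouse hippocampus. They were taken from a list of named genes with no cut on a measured value, but the list was chosen with earlier results of these data known. All 52 were found in the GENCODE M21 annotation. By the region in which each is best known, 7 belonged to the forebrain, 6 were broadly neural (the TALE and zinc finger homeobox genes), and 39 belonged to other lineages, which were the ventral forebrain, diencephalon and eye (11), the midbrain, isthmus and hindbrain (11), the neural tube (8), the Iroquois family (4) and organs outside the nervous system (5). The series held 1 group, hippocampus tissue (labelled as a layer, with no layer named) of male B6CASTF1/J mice aged 8 to 10 months, an F1 hybrid of the C57BL/6J and CAST/EiJ strains. Its 2 biological replicates were each a pool of 2 biosamples, and both carry the same donor label, so the spread between them may be partly technical. There was no treatment, mutant or second tissue, so the genes were described beside all protein-coding genes, and forebrain genes beside those of other lineages. Here forebrain genes are the set of 7 alone, as those of the ventral forebrain and diencephalon are counted with the other lineages.

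During development, signals from organising centres switch these genes on in bands along the neural tube, and their proteins, which share a homeodomain or a paired domain, set the identity of each band. In cells of another identity their promoters, which often lie in CpG islands, are commonly held by the Polycomb repressive complexes. Many forebrain members of the group, such as the POU factors and LIM homeodomain factors of the cortex, stay in use in neurons after birth. DNase I cuts DNA that nucleosomes do not cover, so a cluster of cuts (a peak) marks accessible DNA, and a short protected stretch inside it (a footprint) marks a candidate binding site.

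A gene was taken to have a promoter peak where a peak overlapped 1000 bp to either side of any start site of its protein-coding transcripts. Distal peaks were those in the gene body and 10 kb to each side that touched no promoter window. The value of a peak is its height, the authors' own signal, on a scale that is not stated. Replicate 1 had 144270 peaks and replicate 2 had 124426, with median heights of 0.643 and 0.639. Replicate 2 was lower by a median of 0.19 on the log2 scale over 101938 peaks matched between the replicates. In bulk tissue a tall peak in few cells and a low peak in many cannot be told apart.

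The tallest accessible sites near these genes but outside their promoters are the DNA behind the distal results below, and 6 of them are shown. Each is the tallest distal peak found in both replicates near its gene that is at most 300 bp long, lies outside untranslated regions and coding exons. Positions are distances of the peak centre from the nearest start site, negative upstream. The 6 genes are those with the tallest such peaks among 33 genes that had one. A match to TAATTA, the core bound by many homeodomains, at a footprint was to be preferred, but 0 of the 33 genes had one. The sequences are from the RefSeq GRCm38 assembly, plus strand, 5′ to 3′, with the bases inside footprints of both replicates in capitals.
Irx5 (chr8:92356061-92356300, intergenic, −1444 bp): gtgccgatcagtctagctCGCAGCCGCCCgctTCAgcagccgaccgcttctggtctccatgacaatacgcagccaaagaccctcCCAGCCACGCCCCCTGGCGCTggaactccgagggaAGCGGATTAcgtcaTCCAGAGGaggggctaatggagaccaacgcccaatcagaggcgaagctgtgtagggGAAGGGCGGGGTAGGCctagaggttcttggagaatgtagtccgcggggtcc
Gbx1 (chr5:24530121-24530320, intergenic, −3019 bp): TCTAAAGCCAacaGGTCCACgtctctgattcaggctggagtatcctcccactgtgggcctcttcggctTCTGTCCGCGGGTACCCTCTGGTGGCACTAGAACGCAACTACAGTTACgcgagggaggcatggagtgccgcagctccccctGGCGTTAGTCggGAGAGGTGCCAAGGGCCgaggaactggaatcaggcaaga
Zfhx3 (chr8:108740581-108740780, in an exon of a noncoding transcript, 26037 bp): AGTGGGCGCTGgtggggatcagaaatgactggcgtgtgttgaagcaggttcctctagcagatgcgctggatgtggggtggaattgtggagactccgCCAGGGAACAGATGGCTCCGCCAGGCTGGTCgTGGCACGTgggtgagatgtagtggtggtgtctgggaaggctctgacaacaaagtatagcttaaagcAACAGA
Meis1 (chr11:19020401-19020660, intergenic, −1546 bp): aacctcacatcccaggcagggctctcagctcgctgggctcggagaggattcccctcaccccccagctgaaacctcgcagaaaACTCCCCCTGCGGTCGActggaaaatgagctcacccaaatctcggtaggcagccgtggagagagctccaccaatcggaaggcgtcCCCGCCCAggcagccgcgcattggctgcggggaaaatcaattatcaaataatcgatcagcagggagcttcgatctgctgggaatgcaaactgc
Pou3f3 (chr1:42691321-42691480, intergenic, −4367 bp): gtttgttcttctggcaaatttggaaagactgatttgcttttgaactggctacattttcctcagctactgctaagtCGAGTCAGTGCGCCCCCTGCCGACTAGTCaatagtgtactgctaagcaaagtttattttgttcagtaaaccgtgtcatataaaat
Meis3 (chr7:16192521-16192680, intergenic, 17171 bp): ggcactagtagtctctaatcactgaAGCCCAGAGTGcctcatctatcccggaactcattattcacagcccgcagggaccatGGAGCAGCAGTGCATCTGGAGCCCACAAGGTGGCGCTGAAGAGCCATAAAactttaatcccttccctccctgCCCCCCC
Their heights in replicates 1 and 2 were 5.28 and 3.54 at Irx5, 4.06 and 3.84 at Gbx1, and 4.27 and 3.17 at Zfhx3. They were 3.01 and 2.69 at Meis1, 3.0 and 2.49 at Pou3f3, and 2.26 and 2.77 at Meis3. Footprints found in both replicates covered between 25 bp (Meis1) and 92 bp (Gbx1) of each. The GC content ran from 40.6% at Pou3f3 to 62.5% at Irx5, which also held 17 CpG dinucleotides.

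A promoter peak in both replicates was found for 22 of the 52 genes (42.3%), against 62.6% of all protein-coding genes. Taken singly, replicate 1 had one for 26 genes, against 64.9% of all genes, and replicate 2 for 25, against 63.7%. Forebrain genes had one in 6 of 7 cases and broadly neural genes in 6 of 6, whereas genes of other lineages had one in 10 of 39 (25.6%). Within the other lineages, the ventral forebrain, diencephalon and eye genes had one in 2 of 11 cases. The contrast is thus between these sets and does not cover every gene of the forebrain. At the 5′ end of the gene alone, forebrain genes had one in 4 of 7 cases (57.1%), against 60.4% of all genes, since the peaks of Lhx2 and Pax6 found in both replicates lay at internal start sites. Of the rest, 4 genes had a promoter peak in replicate 1 alone, against 2.28% of all genes, 3 in replicate 2 alone, against 1.1%, and 23 in neither, against 34% of all genes. All 23 belonged to other lineages. Where present, the promoter peaks of the group were also low. The tallest promoter peak of each gene open in both replicates had a median height of 0.995 ± 0.115 for the 22 genes and 3.24 ± 0.498 for all 13666 genes (SD of the replicate medians, n = 2). The medians of the forebrain, broadly neural and other-lineage genes were 2.61 ± 0.281, 1.19 ± 0.14 and 0.637 ± 0.0787, so that the 3 sets stood in that order in each replicate. Only Pou3f3 and Pbx3 exceeded the median of all genes in both replicates, and Lhx2 did so in replicate 1.

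Among forebrain genes, the POU factor gene Pou3f3 (also known as Brn1, which acts in neurons of the cortex and hippocampus) had by far the tallest promoter peak, with 9.36 in replicate 1 and 6.77 in replicate 2 at its start site (chr1:42695681-42695820 in replicate 1). It ranked 1297 and 1481 among all genes. Its relative Pou3f2 (Brn2) had 1.97 and 1.33. Lhx2, the LIM homeodomain gene that sets cortical identity against the hem from which the hippocampus is induced, had 3.74 and 2.81. That peak lay at an internal start site (chr2:38350881-38351180 in replicate 1), and the upstream start site had only low peaks of 0.518 to 0.63, in replicate 1 alone. Emx2, needed for growth of the hippocampus, had 3.12 and 2.64, and its paralogue Emx1 had 1.48 and 1.08. At Emx2 a pair of peaks flanked the start site in each replicate, with heights of 3.01 and 3.12 in replicate 1 and 2.64 and 2.31 in replicate 2. The downstream one of the pair was centred 24 bp from the start of the antisense gene Emx2os, so it cannot be assigned to either gene. Pax6, the paired box gene of cortical progenitors and the eye, had 2.50 and 2.18 at the same bases of an internal start site in both replicates (chr2:105675281-105675600). Otx1, which acts in deep cortical layers, had a peak of 0.853 in replicate 1 (chr11:22001301-22002200) and none in replicate 2. These 7 genes therefore spanned a wide range within each replicate, while both replicates gave the same order.

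The broadly neural genes were open in both replicates without exception, mostly at modest height. Pbx3, whose product binds DNA together with HOX and MEIS proteins, stood highest with 4.0 in replicate 1 and 3.09 in replicate 2, at a peak centred at −727 bp from its start site (chr2:34372641-34372900). The Meis genes encode its partners. Meis1 had 1.52 and 1.55, Meis2 had 1.6 and 1.33, and Meis3 had 1.06 and 0.775. The zinc finger homeobox genes encode very large proteins. Zfhx4 had 0.991 and 0.852, and the lowest of the set, Zfhx3, a regulator of the circadian clock in the hypothalamus, had 0.571 and 0.607 at an internal start site.

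**Figure D1:**
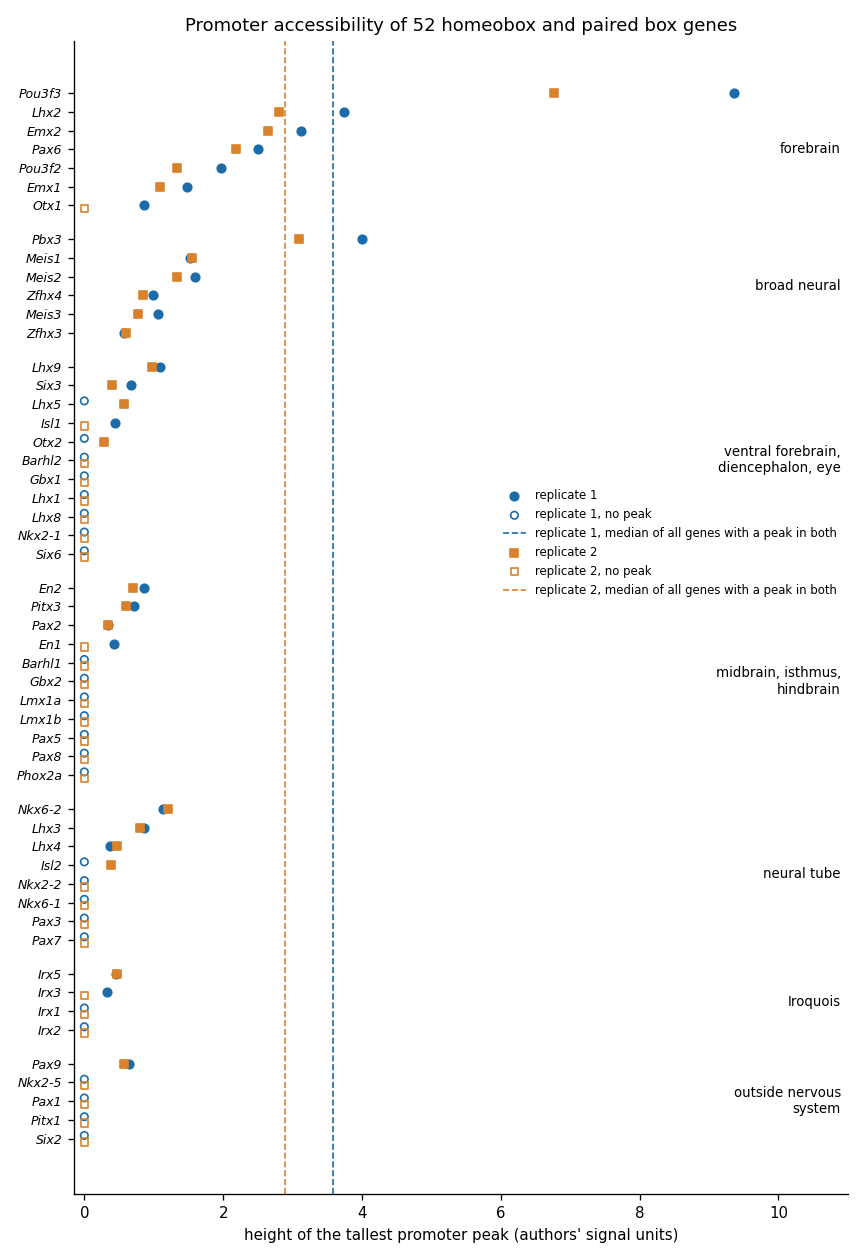
Height of the tallest promoter peak (horizontal axis, authors' signal units) of each of the 52 genes, grouped by lineage from the forebrain at the top, with circles for replicate 1 and squares for replicate 2. Open symbols at 0 mark genes with no promoter peak in that replicate, and dashed lines mark the medians of all genes open in both replicates (3.59 in replicate 1 and 2.89 in replicate 2). Pou3f3 and Pbx3 lie beyond the line of each replicate and Lhx2 beyond that of replicate 1, and 23 of the 39 genes in the lower 5 sets sit at 0 in both.

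In the other lineages the peaks that were found were low and scattered over all 5 sets. In the ventral forebrain, diencephalon and eye set, Lhx9, a LIM homeodomain gene of the thalamus and gonad, had 1.09 and 0.975 in replicates 1 and 2, and Six3, a gene of the anterior neural plate and eye, had 0.669 and 0.40. In the midbrain, isthmus and hindbrain set, En2, an engrailed gene of the midbrain and cerebellum, had 0.853 and 0.697. Pitx3, needed by midbrain dopamine neurons and the lens, had 0.715 and 0.594, and Pax2, of the midbrain border and kidney, had 0.341 and 0.336 at neighbouring sites that did not overlap. In the neural tube set, Nkx6-2 had 1.13 and 1.20, Lhx3 had 0.860 and 0.807, and Lhx4 had 0.368 and 0.471. Nkx6-2 is a ventral neural tube gene that is also used by oligodendrocytes, whose markers were open in both replicates for 7 of 8 genes, with medians of 2.07 and 1.43; their part in the Nkx6-2 value was not tested. Lhx3 and Lhx4 act in motor neurons and the pituitary. In the Iroquois set Irx5 had 0.459 and 0.478, and outside the nervous system Pax9, of the pharyngeal pouches and teeth, had 0.650 and 0.568. The tallest of all 39, Nkx6-2, was thus below every forebrain gene open in both replicates except Emx1, which it exceeded in replicate 2.

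The 7 genes with a promoter peak in 1 replicate alone had heights of 0.328 to 0.853 in replicate 1 and 0.284 to 0.575 in replicate 2, or 50 to 130 and 44 to 89 of the smallest steps between heights. In replicate 1 they were Otx1 (0.853), Isl1 (0.440), En1 (0.427) and Irx3 (0.328). In replicate 2 they were Lhx5 (0.575), Isl2 (0.387) and Otx2 (0.284). Isl1 and Isl2 are LIM homeodomain genes of motor neurons, En1 is the partner of En2 at the isthmus, and Lhx5 and Otx2 act in the early forebrain. The Lhx5 peak was centred 71 bp from the start of the antisense gene Gm27199 and 139 bp from that of Lhx5. Otx1 stood apart, as its peak was above the median height of replicate 1 and its promoter window held 1253 listed bases there, against 0 in replicate 2. For the other 6, a promoter called in 1 replicate alone cannot be told from one near the limit of detection in both.

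The 23 genes with no promoter peak in either replicate were Lhx1, Lhx8, Nkx2-1, Six6, Gbx1 and Barhl2 of the ventral forebrain, diencephalon and eye, and Gbx2, Pax5, Pax8, Lmx1a, Lmx1b, Barhl1 and Phox2a of the midbrain, isthmus and hindbrain. They also included Nkx2-2, Nkx6-1, Pax3 and Pax7 of the neural tube, Irx1 and Irx2 of the Iroquois family, and Nkx2-5, Pax1, Pitx1 and Six2 outside the nervous system. Nkx2-1 and Lhx8 specify ventral forebrain neurons, Phox2a marks noradrenergic neurons, and Nkx2-5 is a heart gene. Their promoter windows held 0 bases listed at a false discovery rate of 0.05 or less, in all 23 genes and both replicates. Among all 7423 genes without a promoter peak, 2.25% had some listed base there in replicate 1 and 1.68% in replicate 2. The nearest peak of any kind lay a median of 6694 bp from a start site in replicate 1 and 5748 bp in replicate 2. It was closest at Lmx1a (2616 and 2498 bp) and farthest at Nkx2-5 (43476 bp) in replicate 1 and Irx2 (70595 bp) in replicate 2.

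Most of these closed promoters were not poor in CpG. The ratio of observed to expected CpG within 500 bp of a start site put 46 of the 52 genes in the upper 5 of 10 deciles of all genes. Of those 46, 18 had a promoter peak in both replicates (39.1%) and 21 in neither (45.7%). Among all 10913 genes of these deciles, 93.9% had a peak in both and 458 (4.20%) had one in neither. In deciles 9 and 10, 5 of 15 genes of the group were open in both, against 96.6% of 4366 genes. They were Pax6, Meis2, Pbx3, En2 and Nkx6-2. The forebrain genes, all in the upper 5 deciles, were open in both in 6 of 7 cases, and the other lineages in 7 of 34. Of the 6 genes in the lower deciles, 4 were open in both, against 31.3% of all genes there. The 2 closed ones were Pax8 (ratio 0.256, decile 3) and Nkx2-5 (0.593, decile 5).

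**Figure D2:**
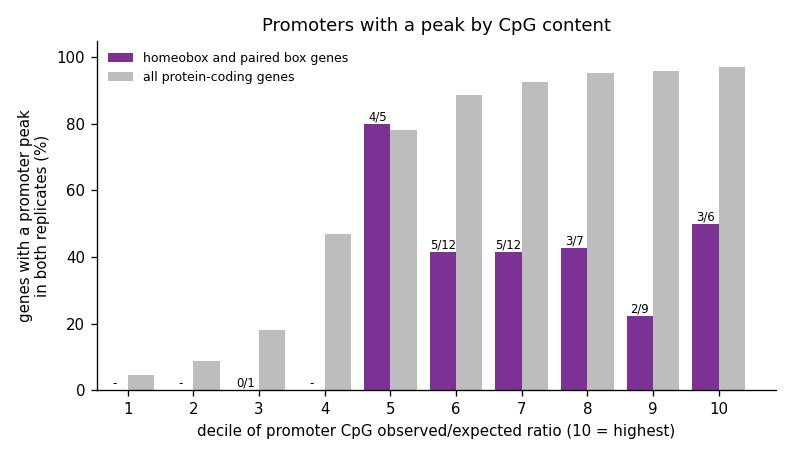
Share of genes with a promoter peak in both replicates (vertical axis, percent) by decile of promoter CpG ratio (horizontal axis, 10 highest), for the 52 homeobox and paired box genes (purple, with counts) and all protein-coding genes (grey). Between deciles 6 and 10 the grey bars run from 88.7% to 97.2%, and the purple bars stay at or below 50%.

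Away from promoters the density of peaks near these genes was close to that near all genes in the longer peak list. The group had a median of 0.397 distal peaks per 10 kb in replicate 1 and 0.396 in replicate 2, against 0.424 and 0.367 for all genes. In the authors' shorter list the medians were 0.21 and 0.112 for the group, against 0.231 and 0.18 for all genes. Forebrain genes had medians of 2.74 and 1.35, broadly neural genes 0.348 and 0.383, and other lineages 0.388 and 0.391. The forebrain median was above that of all genes in each replicate, and it differed by more than 1.5 times between them. Within gene bodies alone it was 2.63 in replicate 1 and 0 in replicate 2, against 0.171 and 0 for all genes. Without Otx1 and Lhx2, the forebrain genes whose counts differed most, it was 2.74 in replicate 1 and 2.59 in replicate 2. Of the 23 genes without a promoter peak, 16 had a distal peak in both replicates, against 44.9% of all genes without a promoter peak. The 9 genes of the group without one in either replicate, against 23.5% of all genes, were Otx2, Lhx1, Lhx9, Isl1 and Six6, and Nkx2-5, Pax9, Pitx1 and Six2.

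By number, Zfhx3, the longest gene, led with 53 distal peaks in replicate 1 and 52 in replicate 2. Irx5 had 14 and 17, Pax5, a gene of the isthmus and of B cells, had 13 in each, and Lmx1a, a gene of the roof plate and dopamine neurons, had 13 and 10. Otx1, with 23, was second in replicate 1 but had 1 in replicate 2, and Emx2 had 14 and 7. All 13 replicate 1 peaks of Pax5 were found in replicate 2, although its promoter had none. Of all distal peaks of the group, 64.1% in replicate 1 and 77.8% in replicate 2 were found in the other replicate, against 69.8% and 83.2% of all distal peaks. For forebrain genes the shares were 32.4% and 82.8%. By density, Otx1 was highest in replicate 1, with 8.18 peaks per 10 kb against 0.355 in replicate 2, and Emx2 had 5.19 and 2.59. Irx5 had 3.62 and 4.40, Pou3f3 had 3.28 and 2.92, and Pou3f2 had 2.74 in each. Irx5, Pou3f3 and Pou3f2 ranked 165 and 68, 212 and 196, and 334 and 225 among the 21827 genes. Isl2 had 0.727 and 2.18. The 4 Iroquois genes fell apart, since Irx1 and Irx2 had no distal peak in replicate 2 and 1 each in replicate 1, and Irx3 had 2 in each replicate.

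**Figure D3:**
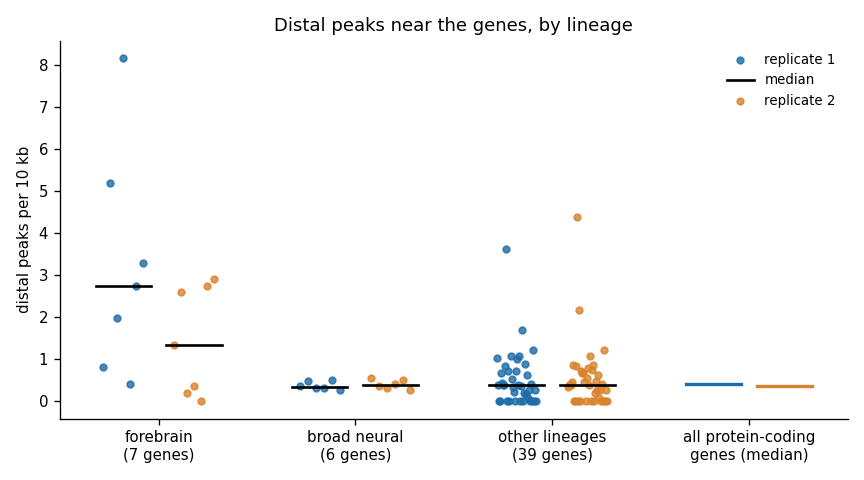
Distal peaks per 10 kb (vertical axis) of each gene in replicate 1 (blue) and replicate 2 (orange), by lineage set, with black bars for set medians and coloured bars at the right for the medians of all protein-coding genes. Forebrain genes spread up to 8.18 in replicate 1 and 2.92 in replicate 2, and most genes of the other sets lie near the medians of all genes, with Irx5 highest among them at 3.62 and 4.40.

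At Irx5 the peaks formed a chain over the start site and the first 10 kb of the gene in both replicates, nearly all of them low. Of the 14 distal peaks in replicate 1, 12 were found in replicate 2, against 69.8% of all distal peaks of replicate 1. The exception in height was the sequence shown above, at −1444 bp, with 5.28 in replicate 1 and 3.54 in replicate 2, against 0.459 and 0.478 for the tallest peak in the promoter window. With a window of 2000 bp it would count as the Irx5 promoter. The start of the noncoding gene Crnde lay 1770 and 1550 bp upstream of the centres of the tallest Irx5 promoter peaks in replicates 1 and 2. The tall site was thus nearer to the start of Crnde than to that of Irx5, and it cannot be assigned to either gene. A contrast of a tall outlying site with a low or absent promoter was also seen at other genes. Gbx1, a gene of the ventral forebrain and spinal cord, had none at its promoter and 4.06 and 3.84 at the site shown above. Pitx3 had 3.57 and 4.01 just beyond its 3′ end (chr19:46135361-46135560). That site lay outside the gene, in an untranslated region of another gene, so it cannot be assigned to Pitx3. Nkx2-2, of the ventral neural tube and oligodendrocyte lineage, had 2.44 and 3.17 in its coding exon with no promoter peak. These genes were chosen after their values were seen.

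Otx1, Lhx2 and Emx2 had unlike numbers of distal peaks in the 2 replicates. Otx1 had 23 in replicate 1 and 1 in replicate 2, so that its density ranked 8 among all genes in replicate 1 and 11188 in replicate 2. Lhx2 had 10 and 1, and Emx2 had 14 and 7. Of the 9 genes of the group with at least 10 distal peaks in a replicate, these 3 differed by a factor of 2 or more, against 14.4% of 2374 such genes, and all 3 had more in replicate 1, against 11.4%; 0 had more in replicate 2, against 3.03%. Otx1 and Lhx2 differed by a factor of 10 or more, against 1.85%, with Lhx2 exactly at that factor. The bases listed at a false discovery rate of 0.05 or less over gene and flanks followed the same split, with 7370 bp in replicate 1 and 198 bp in replicate 2 at Otx1, 3293 and 580 bp at Lhx2, and 6194 and 2363 bp at Emx2. At Irx5 they were 5728 and 6192 bp.

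The extra peaks of Otx1 were low, between 0.217 and 0.610, and 0 of them reached the median height of replicate 1. They spread over the gene, its UTRs and exons included, and over both flanks. On the upstream flank, those from chr11:22007027 to 22008621 lay in the body of another protein-coding gene. The peaks hardly went beyond the flanks, as a flank of 50 kb gave 24 and 1. In the shorter peak list Otx1 had 5 in replicate 1 and 0 in replicate 2. At Lhx2 the peaks were taller, and 9 of its 10 in replicate 1, the shared one included, reached the median height. At Lhx2 1 distal peak was shared, 25392 bp from the internal start site, with 0.748 in replicate 1 and 0.994 in replicate 2. The tallest distal peak of Emx2 was shared, at −3981 bp, with 2.17 and 1.97. The cause of these 3 differences was not tested.

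**Figure D4:**
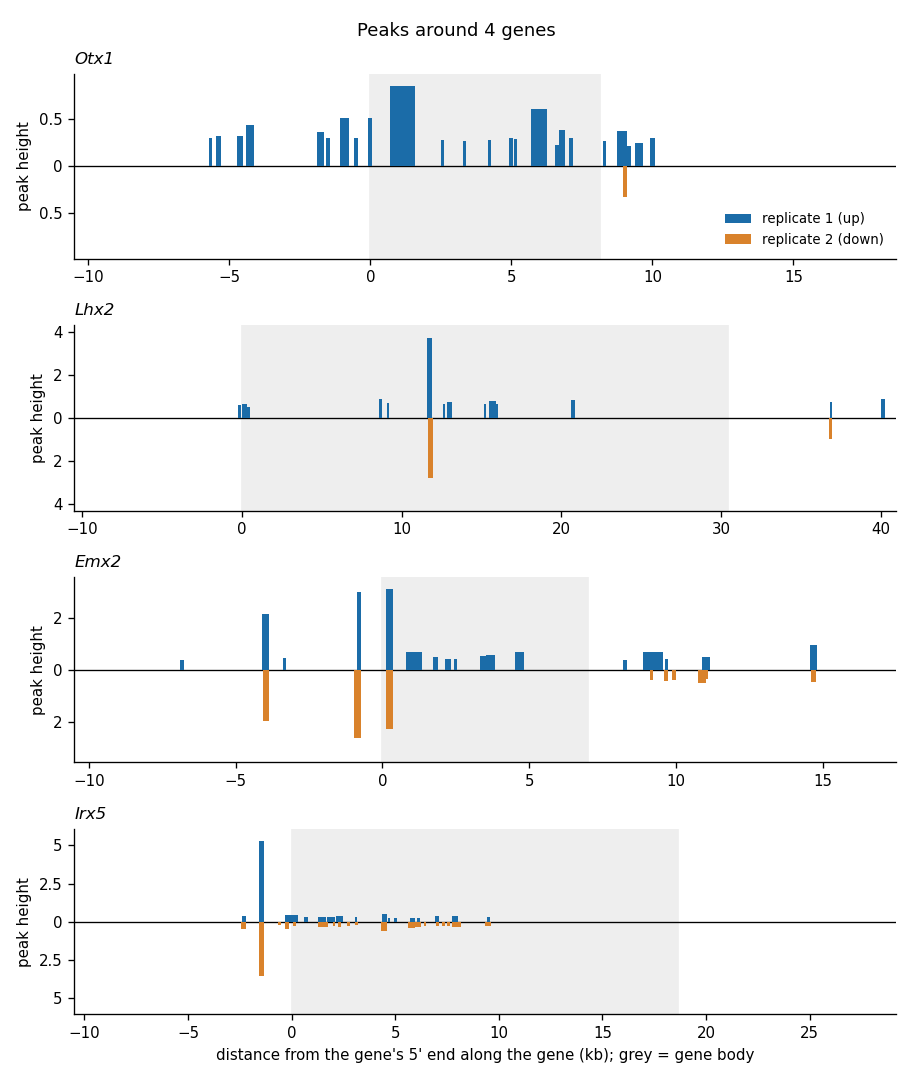
Peaks around Otx1, Lhx2, Emx2 and Irx5 by distance from the 5′ end of the gene (horizontal axis, kb, in the direction of transcription), with heights (vertical axis, authors' signal units) upward for replicate 1 and downward for replicate 2. Bars are as wide as the peaks, with a minimum width for visibility, and grey marks the gene body. Low peaks fill Otx1 in replicate 1 but not in replicate 2, whereas the chain of low peaks at Irx5 is present in both.

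The breadth of accessible DNA at promoters varied more than its height. Listed bases in the promoter windows differed by a factor of 2 or more between the replicates in 10 of the 22 genes open in both, against 4.98% of all genes open in both. Of its 19 genes below the median height of all genes in both replicates, 8 differed so, against 9.34% of 6467 genes. It went both ways. Replicate 1 had more in Emx2 (1804 and 722 bp in replicates 1 and 2), Lhx2 (1427 and 427 bp), Lhx9 (1518 and 202 bp), Pitx3, Meis3, Zfhx3 and Lhx4. Replicate 2 had more in Pbx3 (684 and 1927 bp), En2 (294 and 750 bp) and Pax2 (142 and 382 bp). At Pbx3 this went with 1 promoter peak in replicate 1 and 4 in replicate 2, and at Lhx9 with 6 and 1. Among the 4 at Pbx3, the peak at chr2:34373021-34373320 (1.14) overlapped a replicate 1 peak just outside the window (1.62), which was counted as distal.

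**Figure D5:**
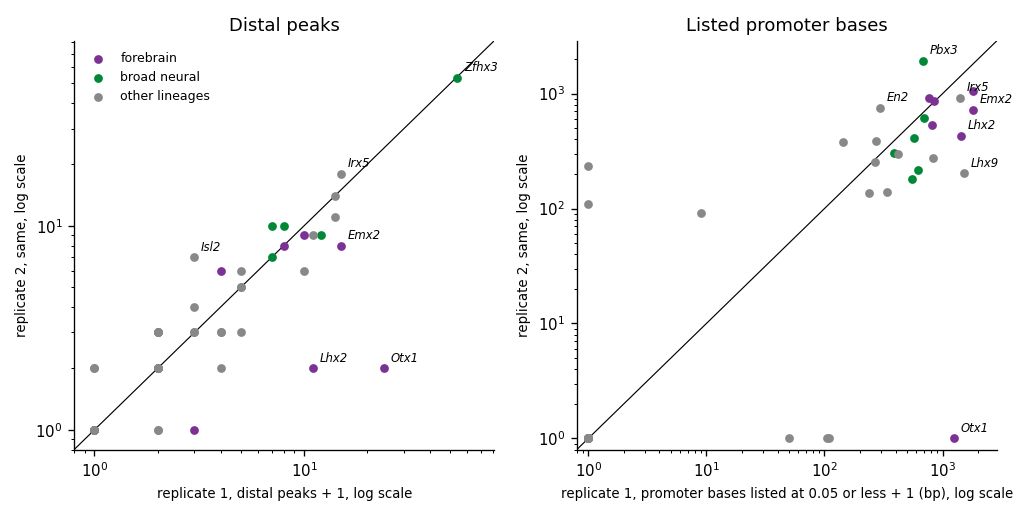
Distal peaks (left) and promoter bases listed at a false discovery rate of 0.05 or less (right) of each gene in replicate 1 (horizontal axis) and replicate 2 (vertical axis), both plus 1 and on log scales, coloured by lineage set, with the line of equality. Otx1 and Lhx2 lie far below the line on the left, and on the right Lhx9 lies below it and Pbx3 above it.

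The height of the tallest promoter peak, in contrast, was close between replicates. After scaling to the matched peaks, the log2 ratio of replicate 2 over replicate 1 had a median of −0.04 over the 22 genes, 14 of which were below 0, against a median of −0.14 over all genes open in both, 71.1% of which were below 0. None of the 22 differed by 1.5-fold or more (0 genes), against 3.23% of all genes. The highest ratios were those of Lhx4 (0.55), Nkx6-2 (0.28) and Zfhx3 (0.28), and the lowest those of Six3 (−0.55), Pou3f2 (−0.38) and Pou3f3 (−0.28). In 20 of the 22 genes the tallest peaks of the replicates overlapped, the exceptions being Emx2 and Pax2, against 95.8% of all genes.

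Footprints were about as common in the promoter peaks of the group as elsewhere. In replicate 1, 44 of its 50 promoter peaks held a footprint (88%), against 80.2% of promoter peaks of all genes, and in replicate 2, 32 of 40 (80%) did, against 82.5%. The side of the difference changed between replicates. For distal peaks the shares were 78.1% and 80.6% in replicates 1 and 2, against 80.5% and 83.4% for all genes. The large Otx1 promoter peak of replicate 1 held 11 footprints, and the tallest Pou3f3 peak held 3 in replicate 1 and 6 in replicate 2.

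The distal peaks of the group were richer in GC than others, with medians of 55% and 54% in replicates 1 and 2 over 200 bp at the peak centres, against 50% of all distal peaks in each. The homeodomain core TAATTA was in 5.08% and 5.09% of them, against 4.48% and 4.49% of all distal peaks. Broadly neural genes had it in 10.7% and 9.41%, forebrain genes in 1.47% and 3.45%, and other lineages in 2.88% and 1.96%, which rests on 1 to 9 peaks a set. TAATTA stood at a footprint, within 6 bp, in 3 of 484 distal footprints of the group in replicate 1 and 0 of 431 in replicate 2, against 0.305% and 0.289% of all distal footprints. The next 3 strings were less frequent than in all distal peaks. CAGATG, a core of neuronal bHLH proteins, was in 18.8% and 17.1%, against 30.6% and 29.9%. TGACAG, the core of MEIS and related TALE proteins, was in 11.3% and 12.0%, against 19.0% and 18.2%, and TGANTCA, the AP-1 site, was in 3.52% and 4.63%, against 10.7% and 10.4%. A loose form of the core of the site of CTCF, an insulator protein, was chosen after the values were seen and differed between the sets. It was in 24.2% and 30.1% of the distal peaks of the group, against 23.5% and 25.5% of all distal peaks. Other lineages were above all distal peaks in both replicates, with 34.6% and 38.2%. Broadly neural genes were below in both, with 15.5% and 20%. Forebrain genes were below in replicate 1 (19.1%) and above in replicate 2 (31%). Of the 6 sequences shown, those of Irx5, Pou3f3 and Meis3 held it. These matches are to both strands, and the part of GC content in the differences was not tested.

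Most partners of these proteins had a promoter peak. Of 18 cofactor genes, which included other PBX and PKNOX genes, the LDB and LMO partners of LIM proteins and the Groucho corepressors of the TLE family, 17 had a promoter peak in both replicates, against 62.6% of all genes, led by Tle4 (19.2 in replicate 1 and 13.8 in replicate 2), Tle1 (13.2 and 9.49) and Pknox1 (11.6 and 8.57). Tle2 had one in replicate 1 alone (0.879). All 15 Polycomb genes had one, with the highest means of both replicates at Jarid2 (12.9 and 8.56), Cbx8 (12.1 and 8.08) and the methyltransferase gene Ezh2 (7.04 and 5.57). The median CpG ratios of the cofactor and Polycomb promoters, 0.866 and 0.892, lay in decile 9, where 96.0% of all genes were open, so that their shares were close to those of genes of like CpG content. The medians of the cofactor and Polycomb genes were 4.22 ± 0.776 and 3.27 ± 0.420, against 3.24 ± 0.498 for all genes (SD, n = 2). Of 14 other homeobox genes of the telencephalon 9 were open in both (64.3%), close to the share of all genes, among them Pou3f1 (3.68 and 2.73) and Pou3f4 (2.47 and 1.56). Their median CpG ratio of 0.782 lay in decile 8, where 95.2% of all genes were open in both. Their share was thus below that of genes of like CpG content. Dlx1, Dlx2, Dlx6 and Vax1, of the ventral telencephalon and optic stalk, had none in either, and Lhx6, of cortical interneurons, had a peak in replicate 2 alone (0.394).

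The tissue label was checked against markers of the cells it could hold. Promoter peaks in both replicates were found for 8 of 8 excitatory neuron markers, 7 of 8 of oligodendrocytes, 5 of 6 of astrocytes, 3 of 8 of inhibitory neurons, 2 of 4 of Cajal-Retzius cells, 1 of 4 of endothelium, 2 of 6 of choroid plexus and ependyma and 3 of 6 of thalamus. The choroid plexus markers Folr1, Clic6 and Kcnj13 and the thalamic markers Lef1 and Tnnt1 had none in either replicate, and Ttr had 0.84 and 0.704. The thalamic markers open in both were Tcf7l2 (1.31 and 1.27), Calb2 (1.02 and 1.28), which is also a Cajal-Retzius marker, and Prkcd (0.774 and 0.768). Foxj1, of ciliated ependyma, had 6.38 and 6.12. The part of these cell types in the values of the group was not tested.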

How the data were processed

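DNase-seq of adult mouse hippocampus gave 1 group of 2 replicates. The authors deposited a longer and a shorter peak list per sample, whose value is a peak height (unit: signal, scale not stated). They also deposited intervals with a false discovery rate of the local cut rate of 0.05 or less (a q-value, the deposited files being named for it) and footprints, whose value is the constant 0.01 in every row, so that only their positions were used. All were called per sample in the mm10 build, per the labels. No aligner or peak caller is named in the labels or files used, and total cuts per sample were not analysed here. Heights came in steps of 0.00656 in replicate 1 and 0.00646 in replicate 2.

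The longer list of each sample was used (144270 and 124426 peaks), with the shorter (87039 and 74088) as an alternative. Start sites and gene bodies were those of GENCODE M21 (basic set), with 21827 protein-coding genes, and sequence was RefSeq GRCm38, whose chromosomes match mm10. Overlaps were of 1 bp or more. Peaks that were each other's best overlap across replicates were matched, and heights were scaled by the median log2 ratio of 101938 matched pairs (−0.19, replicate 2 over replicate 1). Motifs were sought as exact strings, with free bases in the AP-1 and CTCF forms, on both strands. Python 3.11.15 was used with numpy 2.4.6, pandas 2.3.3, pysam 0.24.0, matplotlib 3.10.9 and bedtools 2.31.1, and the counting functions were tested on simulated data.

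The genes and the lists they were set beside were chosen with earlier results of these data known. Promoter heights were to be given for every forebrain and broad neural gene, the 3 tallest of each other lineage and each gene with a peak in 1 replicate alone; distal counts for the 6 genes with most peaks, the 6 with the highest density and the 6 with fewest; and replicate ratios for the 3 highest and 3 lowest. The choice of any further gene and of listed promoter bases 2-fold apart followed a look at the values. So did the restriction of the latter to genes below the median height, and the forebrain medians without Otx1 and Lhx2. The factor of 10 between distal counts was not among the planned measures. The 2 samples form 1 group, which leaves no conditions to test and no p-value. Alternatives covered the peak list, the window, the flank, the start sites, peak height, scaling and each replicate alone, and, chosen after seeing the data, merged peaks. The values of 1 partner gene are not reported here.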

Additional observations from a re-analysis of the deposited data

How the results depend on the processing

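The counts of genes with a promoter peak in both replicates were within 1.5 times of the reported ones under every alternative run for all 52 genes (22, between 15 and 22, and 25 and 26 in each replicate alone) and for forebrain genes (6, and 6 and 7 alone), which had 4 at the 5′ end of the gene alone (57.1%, against 60.4% of all genes). For other lineages the 10 fell to 5 in the shorter list and to 4 with peaks at or above the median height of their sample, and were 13 in each replicate alone. Over all genes those alternatives gave 58.0% and 57.1%.

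Distal medians of the sets, given here as means of the 2 replicates, moved more. Those of all genes moved too, from 0.424 and 0.367 in replicates 1 and 2 to 0.231 and 0.18 with the shorter list. For all genes they were 0.171 and 0 with gene bodies only and 0.492 and 0.425 with flanks of 50 kb. Peaks at or above the median height gave all genes 0.174 and 0.128, and windows of 2000 bp gave 0.376 and 0.318. With the shorter list, gene bodies only, flanks of 50 kb, peaks at or above the median height and windows of 2000 bp, the 0.397 per 10 kb of all 52 genes became 0.161, 0.0754, 0.459, 0.191 and 0.394. The 2.04 of the forebrain became 0.756, 1.31, 0.915 and 0.926 with the shorter list, gene bodies only, flanks of 50 kb and the taller peaks, and the 0.389 of other lineages became 0.0859, 0, 0.445 and 0.181 with the shorter list, gene bodies only, flanks of 50 kb and the taller peaks. In each replicate alone the medians were 0.396 and 0.397, 1.35 and 2.74, and 0.388 and 0.391. Merging overlapping peaks, chosen after seeing the data, moved none of these 3 medians. Summing promoter peaks gave median heights of 3.41 for the forebrain (2.41 and 2.81 in each replicate alone) and 0.798 for other lineages (0.581 and 0.692 alone), which windows of 2000 bp put at 0.780. The footprint share of 84% (80% and 88% alone) became 93.7% in the shorter list, and the TAATTA share (5.08% and 5.09% alone) became 6.37% over whole peaks and 5.73% in the shorter list. Without scaling the log2 ratio was −0.23. The causes were not tested. No paired analysis was possible because there is 1 group and no test. Low peaks limit the calls: a promoter without a peak may hold cuts below the limit of detection, and 2 replicates give no firm spread.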
